A study of Homo sapiens with 12 samples.

Results

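FLT3, its ligand FLT3LG, the related receptors KIT and CSF1R, the kinases AXL, MERTK, TYRO3, LTK and ALK, and the cytoplasmic kinase SYK were followed through MV4-11 cells treated with a liposomal form of mitoxantrone (Mito-Lipo), with gilteritinib, or with both. They are 10 of the 43876 genes in the table and were matched by symbol, as FLT3, its ligand, class III receptors of myeloid cells and other kinases inhibited by gilteritinib. MV4-11 is a human acute myeloid leukemia line that the study used for its FLT3 internal tandem duplication, whereas the labels give all 12 libraries the genotype wild-type. The groups were DMSO (vehicle), Mito-Lipo (20 nM; the labels call this drug mitoxantrone), Gilteritinib (25 nM) and Com (Mito-Lipo at 20 nM with gilteritinib at 20 nM), each given for 24 h, with 3 libraries per group. All groups are the same line, so nothing here covers other leukemias, and Com is not the sum of the single doses, because its gilteritinib dose is the lower one. No source used here says whether the 3 libraries of a group came from separate cultures, so p-values measure the spread between these libraries, which may be technical. The unit is FPKM, fragments scaled by gene length and by the depth of the library.

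FLT3 is a class III receptor tyrosine kinase of hematopoietic progenitors. When its ligand joins a pair of receptors they phosphorylate each other and signal through STAT5, RAS and PI3K, and an internal tandem duplication keeps the receptor active without ligand. KIT, the stem cell factor receptor, and CSF1R, the receptor of macrophage colony-stimulating factor and IL-34, belong to the same class. AXL, MERTK and TYRO3 bind GAS6, and MERTK and TYRO3 also bind protein S. LTK and ALK bind the ALKAL proteins, and SYK docks on phosphorylated ITAM motifs of immune receptors. Gilteritinib is an inhibitor of FLT3 kinase that also inhibits AXL, and mitoxantrone is a topoisomerase II poison. None of the values below measures protein, phosphorylation or kinase activity.

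FLT3, SYK, CSF1R, KIT and LTK reached 1 FPKM in each of the 12 libraries, whereas FLT3LG, TYRO3 and ALK reached that level in none. Over the 12 libraries the mean FPKM was 158 for FLT3, 72.0 for SYK, 23.4 for CSF1R, 11.9 for KIT and 4.07 for LTK. It was 0.933 for MERTK, 0.804 for TYRO3, 0.507 for AXL, 0.320 for FLT3LG and 0.0254 for ALK. Among all genes of the table the FLT3 mean stood at percentile 99.4 and the SYK mean at percentile 98.4. In DMSO the order was FLT3, SYK, CSF1R, KIT, LTK, TYRO3, MERTK, FLT3LG, AXL and ALK, and neighbours in it had overlapping libraries at CSF1R with KIT, TYRO3 with MERTK, and MERTK with FLT3LG. In Mito-Lipo MERTK and AXL stood above TYRO3, but the libraries of these 3 overlapped. The filter of 1 FPKM or more in 3 or more libraries was passed by 6 members (FLT3, KIT, CSF1R, MERTK, LTK and SYK) and not by 4 (FLT3LG, AXL, TYRO3 and ALK). MERTK passed through 3 libraries, Mito-Lipo replicates 2 and 3 and DMSO replicate 2, so its place among the tested genes rests on the group and the replicate numbers in which it was high.

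**Figure D1:**
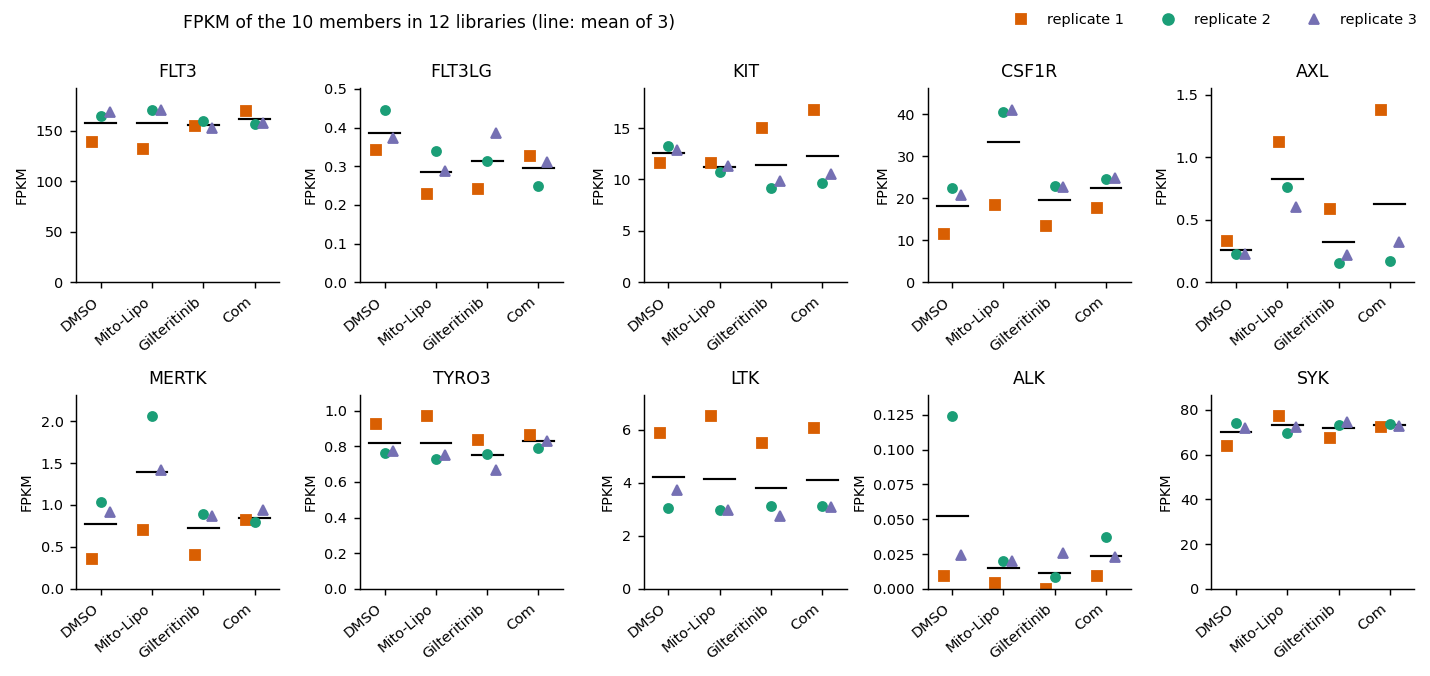
FPKM (vertical axis, linear, from 0, a scale for each gene) of the 10 members in each of the 12 libraries by condition, with the symbol giving the replicate number and the line the mean of 3. FLT3 lies between 132 and 171 FPKM in every condition, CSF1R is highest in Mito-Lipo replicates 2 and 3, and replicate 1 lies above the others for LTK and below them for CSF1R in all 4 conditions.

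Promoter sequences are given for the 3 receptors that were higher in Mito-Lipo than in DMSO at all 3 replicate numbers (CSF1R, MERTK and AXL) and for FLT3, which was not. They come from RefSeq on GRCh38.p14, where all 10 members had at least 1 listed start. Each run ends where an exon of GENCODE 29 begins, and the last 30 bases before the downstream CSF1R start, which such an exon of another transcript reaches, are given apart. Motifs were searched on both strands in the 250 bases before each start. They were the AP-1 motif TGANTCA, the ETS motif GAGGAA, the E-box CANNTG and the GC box GGGCGG. PU.1, the product of SPI1 and a master factor of myeloid cells, can bind the ETS motif. This motif is longer than the ETS core GGAA, which was not searched. Capitals mark the matches of the AP-1 motif and the ETS motif only, and these 2 do not overlap each other. RefSeq gives CSF1R 2 starts, and values per gene do not tell which of them was used.
CSF1R upstream start, chr5:150113373-150113615, minus strand: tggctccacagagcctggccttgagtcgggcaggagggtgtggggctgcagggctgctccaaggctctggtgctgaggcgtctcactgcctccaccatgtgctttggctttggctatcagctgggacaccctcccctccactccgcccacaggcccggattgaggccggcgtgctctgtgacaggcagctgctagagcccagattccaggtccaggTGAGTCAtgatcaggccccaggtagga
CSF1R downstream start, chr5:150086608-150086804, minus strand: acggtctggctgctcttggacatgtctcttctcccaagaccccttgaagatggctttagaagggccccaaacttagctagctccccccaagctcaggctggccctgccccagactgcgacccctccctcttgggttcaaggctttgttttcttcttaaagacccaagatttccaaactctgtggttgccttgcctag
CSF1R, the last 30 bases before the downstream start, chr5:150086555-150086584, minus strand: gcccaaggagGAGGAAGAGGAAaacaagac
MERTK, chr2:111898357-111898478, plus strand: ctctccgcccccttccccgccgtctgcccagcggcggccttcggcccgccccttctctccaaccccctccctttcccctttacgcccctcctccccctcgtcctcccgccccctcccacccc
AXL, chr19:41218973-41219202, plus strand: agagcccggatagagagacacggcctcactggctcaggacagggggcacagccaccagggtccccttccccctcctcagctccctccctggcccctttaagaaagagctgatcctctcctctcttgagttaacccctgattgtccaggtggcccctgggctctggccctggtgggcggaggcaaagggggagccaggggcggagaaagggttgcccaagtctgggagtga
FLT3, chr13:28100593-28100826, minus strand: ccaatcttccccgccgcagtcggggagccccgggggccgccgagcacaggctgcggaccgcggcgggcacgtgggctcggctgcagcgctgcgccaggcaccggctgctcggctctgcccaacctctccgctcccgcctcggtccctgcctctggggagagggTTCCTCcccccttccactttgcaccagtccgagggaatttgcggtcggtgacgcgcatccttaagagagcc
The upstream CSF1R window holds 1 AP-1 match, which begins 34 bases before the start. In the downstream window are 2 adjoining ETS matches, which begin 20 and 14 bases before its start. The FLT3 window holds 1 ETS match, on the other strand, 87 bases before its start. The MERTK and AXL windows hold neither of these 2 motifs, although the MERTK and AXL runs given above hold the shorter GGAA on the other strand. Among the other members, a TYRO3 window also holds an AP-1 match, and SYK, LTK, ALK and FLT3LG windows hold ETS matches. E-boxes number 4 in the upstream CSF1R window, 2 in that of FLT3 and 1 in the AXL window given above. GC boxes number 4 in the MERTK window, 2 in that AXL window and 1 in the upstream CSF1R window. Of 35116 RefSeq promoter windows, 6.57% hold the AP-1 motif, 23.6% the ETS motif, 61.8% the E-box and 42.6% the GC box. None is therefore rare, and a match is a description of letters.

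FLT3 transcript did not differ beyond the spread between libraries under any treatment. The 3 DMSO libraries gave 138, 165 and 169 FPKM and the 3 Mito-Lipo libraries gave 132, 171 and 170 FPKM. Gilteritinib gave 155, 160 and 153 FPKM, and Com gave 169, 157 and 158 FPKM. All 4 groups overlapped, and the largest departure was of replicate 1, which was the lowest library in DMSO and Mito-Lipo and the highest in Com. Against the DMSO library of the same number, FLT3 in Com was 1.22 times as high in replicate 1 and 0.953 and 0.936 times as high in replicates 2 and 3. In Gilteritinib these ratios were 1.12, 0.972 and 0.907. The 95% counting interval of each ratio excluded 1. On the log2(FPKM + 1) scale, the limma difference from DMSO was 0.00 ± 0.11 (SE, n = 3 per group) in Mito-Lipo, with a 95% interval of -0.24 to 0.24. It was -0.01 in Gilteritinib (-0.25 to 0.23) and 0.04 in Com (-0.20 to 0.28), with adjusted p of 0.999, 1 and 1 by limma. Each value rests on 19064 to 25996 fragments, and the 3 intervals bound a change of FLT3 transcript at 0.28 on this scale. With replicates 2 and 3 only (n = 2 per group), FLT3 was -0.09 in Gilteritinib (adjusted p 0.387) and -0.08 in Com (adjusted p 0.676) by limma, and did not pass.

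The ligand of FLT3 was measured from very few fragments. FLT3LG, which drives the receptor in normal progenitors, had 11 to 21 fragments per library and failed the filter. It gave 0.341, 0.446 and 0.373 FPKM in DMSO, 0.229, 0.339 and 0.289 FPKM in Mito-Lipo, 0.242, 0.313 and 0.386 FPKM in Gilteritinib, and 0.328, 0.248 and 0.311 FPKM in Com. All Mito-Lipo and all Com libraries were below the lowest DMSO library, with means 0.738 and 0.764 times that of DMSO. Among all tested genes, 5.90% had Mito-Lipo libraries all below those of DMSO and 3.16% had Com libraries all below them. Without the filter, the limma difference in Mito-Lipo was -0.11 ± 0.06 (SE) with an adjusted p of 0.814. In GENCODE 29, FLT3LG shares 800 exon bases with AC010619.2 and 338 with AC010619.1 on the same strand, so fragments there cannot be assigned with certainty.

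KIT and CSF1R, the other class III receptors, differed in pattern. KIT, at 11.6, 13.2 and 12.8 FPKM in DMSO, gave 11.6, 10.7 and 11.3 FPKM in Mito-Lipo. In Gilteritinib it gave 15.03, 9.21 and 9.84 FPKM and in Com 16.8, 9.64 and 10.5 FPKM. Against the DMSO library of the same number, KIT in Com was 1.45 times as high in replicate 1 and 0.730 and 0.820 times as high in replicates 2 and 3. In Gilteritinib the same ratios were 1.30 in replicate 1 and 0.697 and 0.767 in replicates 2 and 3. Replicate 1 thus stood on the other side of DMSO from the other libraries in both gilteritinib conditions, as it did for FLT3 with ratios nearer to 1. The 95% counting interval of each of these 6 KIT ratios excluded 1. The limma difference from DMSO was -0.16 ± 0.20 (SE) in Gilteritinib and -0.06 ± 0.20 (SE) in Com, each with an adjusted p of 1, and -0.15 ± 0.20 (SE) in Mito-Lipo with an adjusted p of 0.938. With replicates 2 and 3 only (n = 2 per group), KIT was -0.41 ± 0.06 (SE) in Gilteritinib (adjusted p 0.0609), -0.34 ± 0.06 (SE) in Com (adjusted p 0.273) and -0.23 ± 0.06 (SE) in Mito-Lipo (adjusted p 0.0956), and did not pass either.

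CSF1R had the largest difference of the members tested on the log2(FPKM + 1) scale, whereas on the scale of recovered fragments (voom) MERTK and CSF1R were alike in size in Mito-Lipo against DMSO, at 0.83 each. It gave 11.4, 22.4 and 20.9 FPKM in DMSO and 18.3, 40.6 and 41.1 FPKM in Mito-Lipo. Gilteritinib gave 13.5, 22.8 and 22.6 FPKM, and Com gave 17.7, 24.6 and 24.8 FPKM. Replicate 1 was the lowest library of every condition, so the groups overlapped, although each Mito-Lipo library lay above the DMSO library of its own number. Those ratios were 1.60 (95% counting interval 1.51 to 1.70), 1.81 (1.74 to 1.90) and 1.97 (1.88 to 2.06). In Gilteritinib they were 1.18, 1.02 and 1.08, and in Com 1.55, 1.10 and 1.19.

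By limma CSF1R was 0.80 ± 0.34 (SE) higher in Mito-Lipo than in DMSO on the log2 scale, with a 95% interval of 0.05 to 1.55, an unadjusted p of 0.0380 and an adjusted p of 0.589, and did not pass the test. It was the 1 member of 6 with an unadjusted p under 0.05, against 7.90% of all genes tested. With the replicate number as a block, the difference had an SE of 0.12 and an adjusted p of 0.0738 by limma. A fit of replicates 2 and 3 only (n = 2 per group) leaves out replicate 1, which was already known to stand apart. There the difference was 0.89 ± 0.04 (SE) with an adjusted p of 0.000373 by limma, where 6.41% of all genes were called. With the block in a voom fit on recovered fragments, an alternative chosen after seeing the data, it was 0.83 with an adjusted p of 0.0210, where 0.84% of all genes were called. The voom fit without the block gave an adjusted p of 0.613, and limma with the block and no filter gave 0.175. The call therefore depended on the treatment of the replicate number, the fit and the filter.

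In the conditions with gilteritinib CSF1R was lower than in Mito-Lipo on average without passing the test. Gilteritinib was 0.69 ± 0.34 (SE) lower than Mito-Lipo (log2 difference -0.69, adjusted p 0.584 by limma), and Com was 0.48 ± 0.34 (SE) lower (log2 difference -0.48, adjusted p 0.960). Both were lower than Mito-Lipo at all 3 replicate numbers, as were 28.8% of all tested genes in the first comparison and 21.7% in the second. In replicate 1, however, Com was 0.967 times Mito-Lipo with a 95% counting interval of 0.916 to 1.02, which includes 1, while in replicates 2 and 3 it was 0.606 and 0.604 times as high. The interaction, which is the Mito-Lipo effect with gilteritinib present less that effect without it, was -0.60 ± 0.48 (SE) with an adjusted p of 1. In replicates 2 and 3 only (n = 2 per group), the Com difference from Mito-Lipo was -0.70 (adjusted p 0.000778), the Gilteritinib difference was -0.82 (adjusted p 0.000533) and the interaction was -0.77 (adjusted p 0.00251) by limma. In the same fit, 6.13%, 6.63% and 2.97% of all genes were called in these 3 comparisons. The voom fit with the block gave -0.71 for Gilteritinib against Mito-Lipo (adjusted p 0.0112), where 2.74% of all genes were called, and no call for CSF1R in Com against Mito-Lipo (adjusted p 0.0867) or the interaction (adjusted p 0.35). The comparisons share libraries, since Mito-Lipo enters each of them.

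CSF1R is itself a marker of monocytes, and other myeloid markers lay mostly above DMSO in all 3 treated groups. Of 10 myeloid markers, 8 had a mean FPKM of at least 1, with CD33 at 17.9 to 27.6 FPKM and LYZ at 490 to 1333 FPKM, while ANPEP and CD14 stayed under 0.3 FPKM. Of the 8 tested, 7 were higher than DMSO in Mito-Lipo, 7 in Gilteritinib and 6 in Com, with median log2 differences of 0.18, 0.07 and 0.11, and 0 passed the test. Of all 18574 genes, 10595, 7473 and 8542 were higher in the same comparisons. The summed FPKM of the 10 was 669 to 830 in DMSO, 715 to 1089 in Mito-Lipo, 727 to 1331 in Gilteritinib and 740 to 1498 in Com. Most of this sum is LYZ, whose mean over all libraries was 699 FPKM, against 54.5 FPKM for FCGR1A, the next highest of the 10. T cell markers were at or near 0, with a sum of at most 0.122 FPKM. Of 4 erythroid markers, 1 had a mean of at least 1 (HBB), and of 6 markers of non-blood cells only PECAM1, which myeloid cells also carry, did. The part of the myeloid markers in the CSF1R values was not tested, and a change in the share of cells cannot be told apart from a change in RNA per cell in bulk samples. RPL7P1, a ribosomal protein pseudogene with a mean of 447 FPKM, lies within CSF1R on the opposite strand but shares no exon base with it.

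The TAM receptors AXL and MERTK were higher in Mito-Lipo at all 3 replicate numbers, and TYRO3 was not. These receptors clear dying cells and damp inflammation in phagocytes. MERTK gave 0.355, 1.04 and 0.912 FPKM in DMSO and 0.706, 2.06 and 1.41 FPKM in Mito-Lipo. It gave 0.398, 0.895 and 0.870 FPKM in Gilteritinib and 0.817, 0.797 and 0.936 FPKM in Com. The ratio of Mito-Lipo to DMSO was 1.99, 1.98 and 1.55 at the 3 numbers, from 49 to 250 fragments per library, yet the groups overlapped because replicate 1 was low in both. The limma difference was 0.42 ± 0.23 (SE), with an unadjusted p of 0.0918 and an adjusted p of 0.707, and did not pass the test with the block either (adjusted p 0.233).

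AXL, whose level stayed below the filter, gave 0.329, 0.223 and 0.225 FPKM in DMSO and 1.12, 0.762 and 0.599 FPKM in Mito-Lipo. Gilteritinib gave 0.585, 0.156 and 0.218 FPKM, and Com gave 1.38, 0.168 and 0.318 FPKM. All Mito-Lipo libraries lay above all DMSO libraries and above all Gilteritinib libraries. Ratios to DMSO at the 3 numbers were 3.42 (95% counting interval 2.53 to 4.67), 3.42 (2.35 to 5.08) and 2.66 (1.81 to 4.01). Among all tested genes, 7.68% had Mito-Lipo libraries all above those of DMSO, and 9.12% had Gilteritinib libraries all below those of Mito-Lipo. Without the filter the limma difference was 0.53 ± 0.24 (SE), with an unadjusted p of 0.0544 and an adjusted p of 0.745, a scale on which the change of so low a gene is understated. The high Com value came from 1 library, since replicate 1 was 4.19 times its DMSO library while the ratios of replicates 2 and 3, 0.753 and 1.41, had counting intervals that included 1.

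TYRO3 lay at 0.926, 0.764 and 0.774 FPKM in DMSO and between 0.664 and 0.969 FPKM in the treated libraries. Its limma differences from DMSO without the filter were -0.01, -0.06 and 0.01 in Mito-Lipo, Gilteritinib and Com, the first with an SE of 0.09. AXL, MERTK and CSF1R were the 3 members higher in Mito-Lipo than in DMSO at all 3 replicate numbers, of 10, against 20.5% of all tested genes. FLT3LG was lower at all 3 numbers, as was ALK, against 14.8%. AXL, FLT3LG and ALK failed the filter, so they are not among the tested genes of these shares.

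**Figure D2:**
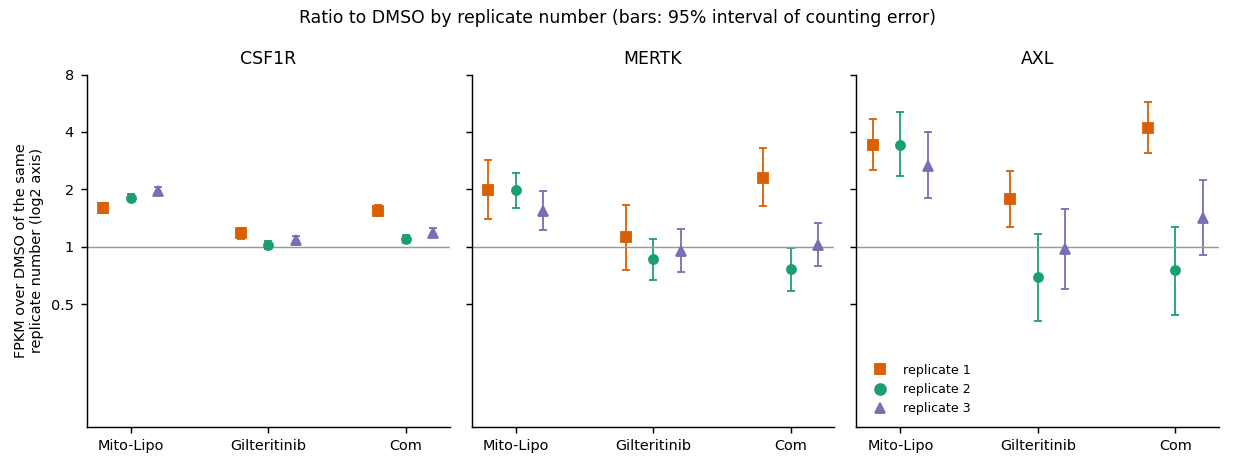
Ratio of FPKM in each treated library to the DMSO library of the same replicate number (vertical axis, log2 scale) for CSF1R, MERTK and AXL, with bars for the 95% interval of counting error alone. The Mito-Lipo ratios lie above 1 at all 3 numbers, from 1.55 to 3.42, and the Com ratio of MERTK and AXL is high in replicate 1 only.

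LTK and ALK, a pair of related receptors, gave no called difference with treatment. LTK gave 5.90, 3.04 and 3.74 FPKM in DMSO, 6.52, 2.98 and 2.97 FPKM in Mito-Lipo, 5.51, 3.12 and 2.75 FPKM in Gilteritinib, and 6.07, 3.14 and 3.09 FPKM in Com. Replicate 1 was the high library of each condition, at 1.74 to 2.19 times the mean of the other two, and the conditions overlapped. The limma differences from DMSO were -0.05, -0.13 and -0.05 in Mito-Lipo, Gilteritinib and Com, each with an SE of 0.33, which the block reduced to 0.09 without a call. ALK had 0 to 28 fragments per library and 0 to 0.124 FPKM, with its highest value in DMSO replicate 2 and no fragment in Gilteritinib replicate 1. The DMSO mean of 0.0524 FPKM thus came mainly from 1 library, and the groups overlapped.

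SYK, the cytoplasmic kinase, was as even as FLT3. It gave 63.8, 74.3 and 71.7 FPKM in DMSO, 77.2, 69.7 and 72.2 FPKM in Mito-Lipo, 67.4, 73.4 and 74.8 FPKM in Gilteritinib, and 72.4, 73.9 and 72.9 FPKM in Com. The 4 groups overlapped. The limma difference from DMSO was 0.06 ± 0.07 (SE) in Mito-Lipo, 0.04 ± 0.07 (SE) in Gilteritinib and 0.06 ± 0.07 (SE) in Com, and the 95% intervals together ran from -0.12 to 0.23.

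In all 6 comparisons between conditions and in the interaction, 0 of 6 tested members had an adjusted p under 0.05 by limma. Over all 18574 genes the share called was 0.00538% in Com against DMSO and 0.0% in each of the others. With so few genes called at all, 0 of 6 cannot show whether the members stand apart from the background. With the block the count was again 0 of 6 in each, with 0.0108% of all genes called in Com against Mito-Lipo, 0.0269% in Gilteritinib against Mito-Lipo and 0.0% in the other comparisons. At an unadjusted p under 0.05 there were 0 members outside Mito-Lipo against DMSO, where the shares of all genes were 1.67% in Com against DMSO, 1.86% in Gilteritinib against DMSO, 1.63% in Com against Gilteritinib, 5.53% in Com against Mito-Lipo, 9.52% in Gilteritinib against Mito-Lipo and 2.91% in the interaction. With the block, CSF1R and MERTK had an unadjusted p under 0.05 in Mito-Lipo against DMSO (15.9% of all genes) and in Gilteritinib against Mito-Lipo (18.0%), and CSF1R in Com against DMSO (4.35%), Com against Mito-Lipo (12.2%) and the interaction (7.4%). No member did in Gilteritinib against DMSO (4.96%) or Com against Gilteritinib (4.39%). In Gilteritinib against DMSO the members' differences ran from -0.16 (KIT) to 0.12 (CSF1R), and in Com against DMSO from -0.06 (KIT) to 0.32 (CSF1R). In Com against Gilteritinib all 6 were higher in Com, from 0.02 (SYK) to 0.20 (CSF1R), as were 10624 of all 18574 genes, and the median was 0.09 for the members and 0.02 for all genes.

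**Figure D3:**
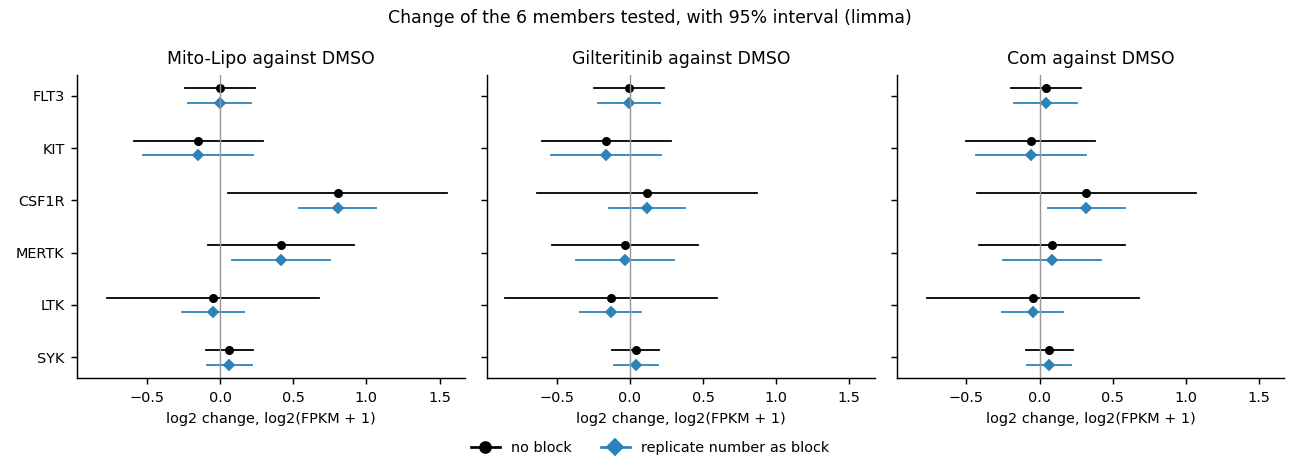
Difference from DMSO on the log2(FPKM + 1) scale for the 6 members tested, with 95% intervals from limma, from fits without (circles) and with (diamonds) a block on the replicate number. The interval of CSF1R in Mito-Lipo runs from 0.05 to 1.55 without the block and is narrower with it, while those of FLT3 and SYK include 0 in all 3 comparisons.

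In the limma fits on log2(FPKM + 1) of all 12 libraries, called differences among the members came only with the replicate number. Replicate 1 against replicates 2 and 3, fitted with the condition as a term, was called by limma for 3 of 6 tested members, against 39.6% of all genes. So common a call does not set the members apart. The split was made because replicate 1 was already known from these data to stand apart, so its p-values are a description. CSF1R was lower in replicate 1 (log2 difference -0.79 ± 0.08 SE, adjusted p 0.000161), as was MERTK (-0.42 ± 0.11 SE, adjusted p 0.0128), which passed the filter only through replicates 2 and 3, the higher side of this comparison. The MERTK call was lost without DMSO replicate 1 (adjusted p 0.0501) or without Mito-Lipo replicate 1 (adjusted p 0.0534). LTK was higher (0.77 ± 0.07 SE, adjusted p 6.78e-05), and KIT, at 0.30 ± 0.12 (SE), did not pass (adjusted p 0.0685). Single libraries decided 3 further values, since KIT passed without DMSO replicate 1 (0.46, adjusted p 0.0108), FLT3 passed without Com replicate 1 (-0.22, adjusted p 0.0266) and SYK passed without Mito-Lipo replicate 1 (-0.12, adjusted p 0.0403) by limma, while with all libraries FLT3 was at -0.14 (adjusted p 0.129) and SYK at -0.06 (adjusted p 0.361). Replicate 1 was the highest library in all 4 conditions for LTK, AXL and TYRO3, 3 of 10 members against 22.0% of all tested genes, and the lowest in all 4 for CSF1R and ALK, 2 of 10 against 10.6%. AXL, TYRO3 and ALK failed the filter, so they are not among the tested genes of these shares. No source used here says what a replicate number stands for.

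The ligands of these receptors were unevenly expressed. GAS6, the ligand of the TAM receptors, was abundant, at 57.9 ± 5.10 FPKM in DMSO and 58.4 ± 17.3, 54.0 ± 8.94 and 62.4 ± 16.3 FPKM in Mito-Lipo, Gilteritinib and Com (SD, n = 3). PROS1, which encodes protein S, had a mean FPKM of 1.93 in DMSO and between 1.95 and 2.07 in the treated groups. KITLG, the ligand of KIT, and IL34, the other ligand of CSF1R, stayed under 1 FPKM in every library. KITLG gave 0.657, 0.137 and 0.201 FPKM in Mito-Lipo against 0.179, 0.0868 and 0.0899 FPKM in DMSO. It was thus higher at all 3 replicate numbers, as were 20.5% of all tested genes, and Com gave 0.936, 0.220 and 0.196 FPKM. CSF1, the first ligand of CSF1R, was 0.118, 3.16 and 3.13 FPKM in Mito-Lipo against 0.0139, 0.575 and 0.645 FPKM in DMSO, higher at all 3 replicate numbers. It was between 0.0666 and 0.626 FPKM in all Gilteritinib and Com libraries. Replicate 1 was the lowest library of each condition, and CSF1 failed the filter. Of the ALK and LTK ligands, ALKAL1 was 0.509 ± 0.134 FPKM in DMSO and 0.983 ± 0.170 FPKM in Mito-Lipo (SD, n = 3), a limma difference of 0.39 with an adjusted p of 0.576, and it passed the filter only through Mito-Lipo replicates 1 and 2 and Com replicate 1, where it was high. ALKAL2 was 1.91 FPKM in DMSO and 1.54 to 1.69 FPKM under treatment. Of 7 ligand genes, 4 were tested and 0 passed in any comparison with DMSO.

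The proteases that shed receptors from the cell surface were expressed throughout. ADAM10 was 20.6 ± 1.52 FPKM in DMSO and 20.8 to 21.4 FPKM under treatment. ADAM17 was 9.25 ± 0.879 FPKM in DMSO and 11.1 ± 0.624 FPKM in Mito-Lipo (SD, n = 3), a limma difference of 0.24 with an unadjusted p of 0.020 and an adjusted p of 0.546.

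Genes that work with SYK lay mostly above DMSO in Mito-Lipo without passing the test. The list of 18 ITAM adaptors, receptors and relays had 13 tested genes, of which 12 were higher and 1 lower, where 10595 of 18574 genes were higher, and 0 of 13 had an adjusted p under 0.05. Their median log2 difference was 0.33, against 0.03 for all genes tested, and 5 had an unadjusted p under 0.05, against 7.90% of all genes. These were FCER1G, the Fc receptor gamma chain (4.04 ± 0.486 to 7.11 ± 1.496 FPKM, log2 difference 0.67), FCGR2A, an Fc receptor (9.97 ± 1.39 to 14.9 ± 3.36 FPKM, log2 difference 0.52), the integrins ITGB2 (0.46) and ITGAM (0.90), and the adaptor LCP2 (0.39). Under the block the count at an unadjusted p under 0.05 was 8 of 13, against 15.9% of all genes, and 0 passed after adjustment. In Gilteritinib against DMSO the median was 0.06 and in Com against DMSO 0.09, with 8 and 10 of 13 higher. All 13 were lower in Gilteritinib than in Mito-Lipo, with a median of -0.25 against -0.06 for all genes, of which 11870 of 18574 were lower. In replicate 1 against replicates 2 and 3, 8 of the 13 were called lower and 1 higher, against 39.6% of all genes called. ITGAM and FCGR1A are also among the myeloid markers given above, so the list is not independent of them.

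**Figure D4:**
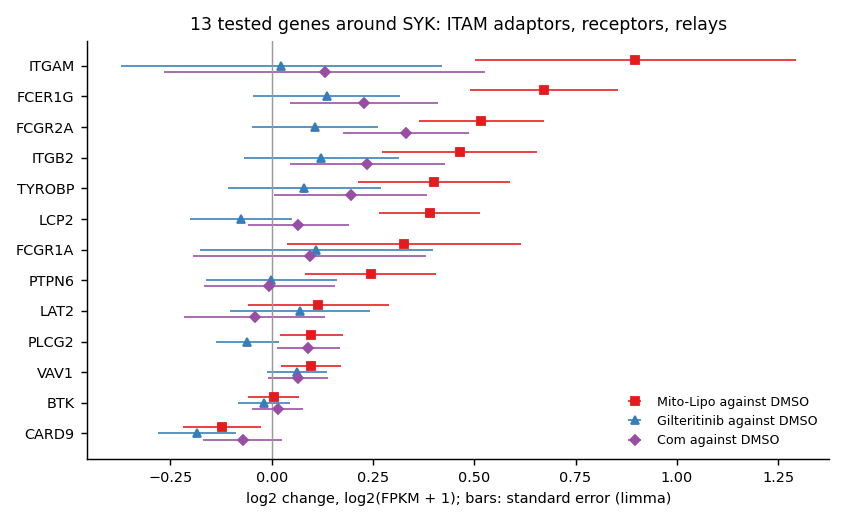
Log2 difference from DMSO of the 13 tested genes around SYK in Mito-Lipo (squares), Gilteritinib (triangles) and Com (diamonds), with bars for the limma standard error. In Mito-Lipo, 12 of the 13 lie above 0, from ITGAM at 0.90 down, and only CARD9 lies below.

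The relays of FLT3 signaling gave no called difference from DMSO. Of 35 genes for adaptors, RAS and MAP kinases, STATs, AKT and Src-family kinases, 32 were tested, and 0 passed in any comparison with DMSO. In Mito-Lipo 24 of 32 were higher with a median of 0.09, in Gilteritinib 21 were lower with a median of -0.03, and in Com 23 were higher with a median of 0.04. Of all 18574 genes, 10595 were higher in Mito-Lipo (median 0.03), 11101 lower in Gilteritinib (median -0.03) and 8542 higher in Com (median -0.01). At an unadjusted p under 0.05 there were 3 in Mito-Lipo, all higher, against 7.90% of all genes, and 8 with the block, all higher, against 15.9%. Those 3 were the kinase SRC (log2 difference 0.59, adjusted p 0.566 by limma), the transcription factor STAT3 (0.32, adjusted p 0.507) and SLA (0.28, adjusted p 0.589). SLA, the Src-like adaptor that dampens receptor signaling, was 13.7 ± 1.63 FPKM in DMSO and 17.5 ± 2.90 FPKM in Com, a log2 difference of 0.32 with an unadjusted p of 0.0191 and an adjusted p of 1 by limma. AKT1 was 18.7 ± 0.237 FPKM in DMSO and 16.47 ± 0.138 FPKM in Com, a log2 difference of -0.18 with an adjusted p of 1.

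Transcription factors that act on FLT3 in blood cells did not pass either. Of 7 tested, 3 were higher and 4 lower in Mito-Lipo, 1 was higher and 6 lower in Gilteritinib, and 2 were higher and 5 lower in Com. Of all 18574 genes, 7979, 11101 and 10031 were lower in the same comparisons. SPI1, which encodes PU.1, was 90.2 ± 16.0 FPKM in DMSO and 78.2 ± 25.3, 68.8 ± 9.30 and 73.4 ± 13.6 FPKM in Mito-Lipo, Gilteritinib and Com (SD, n = 3). MEIS1, a homeobox partner of HOXA9, was 37.7 ± 1.66 FPKM in DMSO and 42.9 ± 0.739 FPKM in Mito-Lipo, a log2 difference of 0.18 with an adjusted p of 0.591 by limma.

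Other receptor tyrosine kinases were mostly below the filter. Of 50 listed, 47 were in the table and 8 were tested, and 0 passed in any comparison with DMSO. The most abundant were INSR, the insulin receptor, at 19.7 ± 2.78 FPKM, IGF1R at 5.34 ± 1.14 FPKM and FGFR1 at 4.84 ± 0.775 FPKM in DMSO (SD, n = 3). FGFR3, a fibroblast growth factor receptor, was 0.807 ± 0.174 FPKM in DMSO and 1.498 ± 0.0914 FPKM in Mito-Lipo, a log2 difference of 0.47 with an adjusted p of 0.474 by limma. It passed the filter through the 3 Mito-Lipo libraries and Com replicate 1, so it was tested because of the group in which it was high.

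The genes whose levels ran most nearly with each member over the 12 libraries were found among 7497 genes by Pearson's r of the log2 values, which share libraries and conditions and are given as a description. For FLT3 they were SFR1 (r = 0.914), PIGX (0.882) and FAM107B (0.876). For KIT they were TMEM170B (0.927), THAP6 (0.923) and IQGAP2 (0.923), and for SYK ARHGDIB (0.958), KCTD5 (0.945) and PCYOX1L (0.934). For CSF1R they were ADGRE5 (0.985), OPN3 (0.983) and PHLDA1 (0.982). With the mean of each replicate number taken off, the nearest to CSF1R were CD82 (0.987), ARHGAP26 (0.980) and BTG2 (0.980), so the neighbours depended on whether the replicate number was left in, whereas ARHGDIB stayed nearest to SYK (0.974).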

How the data were processed

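RNA-seq was made from MV4-11 cells in 12 libraries, 3 per condition, from total RNA with cDNA amplified before library construction. The authors deposited 1 table of FPKM per gene, with 4 decimals. Per the labels, the submitters' processing notes name Bowtie 0.12.9, Cufflinks 2.1.1, HTSeq, DESeq2 and the mouse build mm10, although 43851 of the 43876 identifiers are human Ensembl genes. The counting strand is not given in the sources used here, so reads from a gene and its antisense partner cannot be told apart. Positions and overlaps were taken from GENCODE 29 (GRCh38), because the table holds no coordinates.

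FPKM steps gave depths of 31724997 to 41330643 fragments. For 18569 of the 18574 genes tested, a length was found that gave whole fragments, to within 0.1 fragment, in all 12 libraries. These lengths were fitted to the values, so whole fragments are no independent check of them. The length found matched an annotated isoform for FLT3LG, CSF1R, LTK and SYK, and not for the other members. The recovered fragments give the counting intervals (95%), which cover counting error only. Genes reaching 1 FPKM in 3 or more libraries were tested. log2(FPKM + 1) values of all 12 libraries were fitted with 1 mean per condition in limma 3.58.1 (R 4.3.3) with a mean-variance trend, and p-values were adjusted by the Benjamini-Hochberg method over all 18574 genes, within each comparison, at 0.05. A difference in log2(FPKM + 1) understates the change of low genes. An exact permutation test of 3 against 3 libraries cannot go below 0.1 and was not used.

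For the ratios, libraries were taken as paired by replicate number, because after removing each condition's mean the r of all 18 same-number pairs was over 0.1 (0.165 to 0.657), against -0.562 to 0.434 for pairs of unlike number. The main limma fit does not use this pairing, so the spread between replicate numbers enters its SE. The fit with the number as a block is an alternative. It lowered the SE of CSF1R in Mito-Lipo against DMSO from 0.34 to 0.12. The fits were tested on simulated data with independent noise in each library. The simulation held no effect of the replicate number, so it cannot decide between the fits with and without the block.

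Members and gene lists were chosen with earlier results of these data known. Beside the members, the genes named in each list were those set by a rule written with the design: all ligand and shedding genes, the members of each other list with the smallest p in Com against DMSO (at most 3), the 3 most abundant other receptors, and the 3 most alike genes per member. ITGAM, LCP2, CARD9, SRC, STAT3, RPL7P1 and the marker genes were named after their values were seen.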

Additional observations from a re-analysis of the deposited data

How the results depend on the processing

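The alternatives were a pseudocount of 0.1, no filter, a mean of 5 FPKM or more, median-ratio scaling, quantile normalization, no trend, a replicate block, replicates 2 and 3 only, fewer libraries in the fit, protein-coding genes only, an unadjusted p, each library left out in turn and, chosen after seeing the data, voom on recovered fragments with and without the block and no filter with the block. Of 756 log2 values for 32 gene comparisons, 707 kept their direction and side of the threshold, 35 reversed, 12 passed the threshold newly and 2 no longer did. The replicate block changed no call of a member, and its adjusted p for CSF1R was 0.0738 in Mito-Lipo against DMSO.

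Counts of called members moved by over 1.5 times in these cases, and the gene gained was CSF1R in each comparison between conditions. The count rose from 0 to 1.0 with replicates 2 and 3 only in the interaction, in Mito-Lipo against DMSO and in both comparisons of Com and Gilteritinib with Mito-Lipo. It rose from 0 to 1.0 in voom with the block in Mito-Lipo against DMSO and in Gilteritinib against Mito-Lipo, and to 1.0 at an unadjusted p in Mito-Lipo against DMSO. For replicate 1 against replicates 2 and 3 it fell from 3 to 1.0 with a mean of 5 FPKM or more, where MERTK and LTK, below that level, were not tested. That count was 4 without the filter (AXL gained) and in voom (KIT gained). Leaving out each library in turn gave 0 in every comparison between conditions and 3 to 4 for replicate 1.

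With replicates 2 and 3 only, FLT3 reversed to -0.081 and MERTK to -0.083 in Com against DMSO, FLT3 to 0.032 and SYK to -0.041 in Mito-Lipo against DMSO, and MERTK to -0.013 in Com against Gilteritinib. FLT3 reversed to 0.029 in Gilteritinib against DMSO with median-ratio scaling and to 0.067 in Mito-Lipo against DMSO with quantile normalization, and MERTK to 0.025 in Gilteritinib against DMSO with the latter. Without crossing 0, CSF1R ran from 0.52 to 1.18 in Mito-Lipo against DMSO, -0.86 to -0.29 in Com against Mito-Lipo and -0.97 to -0.31 in the interaction as each library was left out, MERTK from 0.22 to 0.64 in Mito-Lipo against DMSO, and KIT from -0.36 to -0.04 in Gilteritinib against DMSO. None of these values was called, and the cause was not tested.

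Leaving out each library in turn, values that crossed 0 ran as follows. In Com against DMSO they ran from -0.047 to 0.095 for FLT3, -0.29 to 0.081 for KIT, -0.095 to 0.20 for MERTK and -0.31 to 0.17 for LTK. In Gilteritinib against DMSO they ran from -0.095 to 0.047 for FLT3, -0.17 to 0.36 for CSF1R, -0.21 to 0.11 for MERTK, -0.37 to 0.087 for LTK and -0.024 to 0.085 for SYK. In Mito-Lipo against DMSO they ran from -0.091 to 0.12 for FLT3, -0.36 to 0.17 for LTK and -0.00062 to 0.11 for SYK. In Com against Gilteritinib they ran from -0.036 to 0.355 for CSF1R and -0.026 to 0.19 for MERTK.

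At 0 to 28 fragments per library for ALK and 11 to 21 for FLT3LG, depth limits any statement on these genes, and AXL and MERTK rest on at most 250 fragments.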
